A study of Sus scrofa with 40 samples.

Results

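The response of subcutaneous backfat to short caloric restriction was examined in pigs of the low residual feed intake (RFI) line, on 10 of the 40 arrays of the series. The arrays were taken by their labelled tissue, line and diet. On 5 of them the RNA came from low RFI pigs held at 80% of maintenance for 8 days, and on the other 5 from low RFI pigs that ate ad libitum over the same 8 days. The tissue was the middle layer of backfat at the 10th rib of prepubertal Yorkshire gilts, 6 months old. All of them, the ad libitum pigs included, were heterozygous for the D298N variant of MC4R, the melanocortin receptor of the brain that curbs appetite. The study used 10 gilts of each line. The labels do not tie arrays to animals, and each array is taken here as 1 pig. Backfat of high RFI gilts on the same 2 diets, on 5 arrays each, served for comparison. Each sample was hybridised to a 1-colour Affymetrix porcine array, whose probe sets each report the brightness for a transcript.

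Residual feed intake is the feed an animal eats beyond what its growth and maintenance predict, so a low RFI pig is an efficient one. In pigs, adipose tissue rather than liver is the main site of new fat synthesis. There, glucose carbon passes through pyruvate and mitochondrial citrate to cytosolic acetyl-CoA, which fatty acid synthase builds into palmitate with NADPH, and the fatty acids are stored as triglyceride. When feed is short, insulin falls, synthesis is curbed and stored fat is released by lipases.

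Values are log2 intensities, so a difference of 1 is a 2-fold change, and differences are restricted minus ad libitum. A probe set was called where its limma p, adjusted by Benjamini-Hochberg over the 15498 probe sets tested, was under 0.05, and "rose" and "fell" are kept for called genes. The p-values measure the spread between these arrays. A named gene is represented by its brightest probe set. The adipocyte identity of the samples was checked first on 10 marker genes. The adipokine gene ADIPOQ stood at 14.65, 14.21, 14.72, 14.83 and 14.68 on the restricted arrays, against 14.56, 14.44, 14.58, 14.47 and 14.99 on the ad libitum arrays. The fatty acid carrier gene FABP4 stood between 14.09 and 14.47 on restricted arrays and between 14.33 and 14.49 on ad libitum arrays. Both adipocyte genes were bright on each of the 10 arrays, and neither was called. Of the 10 tested markers 1 rose (CFD), 2 fell (DGAT2 and LPL) and 7 were not called, with 8 differences below 0 and a median of -0.18. The mean of the 10 was 12.33 ± 0.348 on restricted and 12.54 ± 0.294 on ad libitum arrays (SD, n = 5 each), a difference of -0.20 (exact permutation p = 0.365, two-sided). Restricted replicate 1 had the lowest mean, 11.76, against 12.21 to 12.83 on the ad libitum arrays.

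Other cells also left signal. The mean of the 5 tested hepatocyte markers was 12.83 on restricted replicate 5, against 7.23 to 8.77 on the other restricted arrays and 7.23 to 8.11 on the ad libitum arrays. In the high RFI line, whose arrays share the fit, the highest mean was 10.07, on restricted replicate 3. All 22 hepatocyte markers on the array were highest of the 20 backfat arrays on low RFI restricted replicate 5. There ALB, the albumin gene, read 14.59 (named after its values were seen). Skeletal muscle markers (25 genes) averaged 12.36, 9.24, 9.45, 10.83 and 5.63 on the restricted arrays and 6.21, 11.13, 11.35, 11.50 and 5.22 on the ad libitum arrays. Arrays with strong and with weak muscle signal thus occurred on both diets. Macrophage markers (17 genes) averaged 9.84 and 10.01 on restricted replicates 1 and 5, 8.87 to 8.94 on the other restricted arrays and 8.64 to 9.11 on the ad libitum arrays. The log2 ratio of the 3' to the 5' GAPDH control probe set, which rises as RNA breaks down, was 1.81 ± 0.702 in restricted and 1.11 ± 0.422 in ad libitum pigs (SD, n = 5 each). None of 11 such array measures differed between diets after adjustment by the exact permutation test (lowest adjusted p = 0.524, two-sided). The smallest p that 5 against 5 arrays can give is 0.00794. Adjusted over 11 measures, a lone measure at that p would not pass 0.05, so the adjusted test cannot show that the diets were alike. Before adjustment the exact permutation p was 0.0476 for the log2 array median and 0.0952 for the GAPDH ratio. The first principal component of the backfat residuals, with 19.1% of their variance, separated replicate numbers 1 and 2 from numbers 3 to 5. The array means are limited in precision by the number of arrays, since intensities carry no counts.

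**Figure D1:**
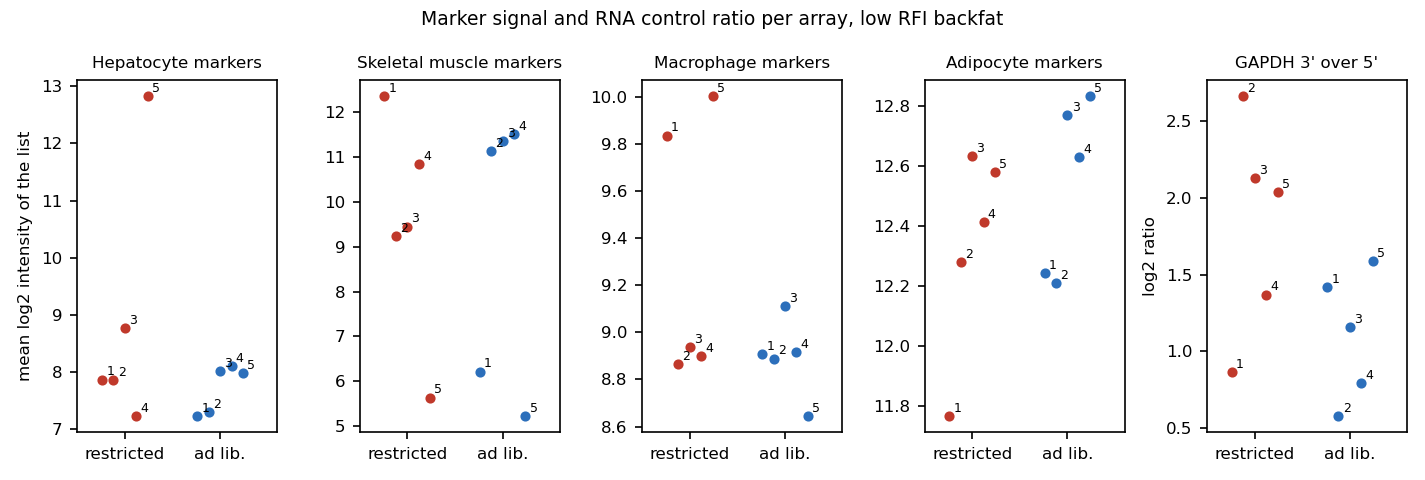
Marker signal and control ratio on each low RFI backfat array. The vertical axes give the mean log2 intensity of a marker list or, at right, the log2 ratio of the 3' to the 5' GAPDH control probe set, points are single arrays and the digits beside them are replicate numbers. Restricted replicate 5 stands at 12.83 for hepatocyte markers, while strong and weak skeletal muscle signal occurs on both diets.

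Restriction was followed by a broad change in backfat of low RFI pigs. Of 15498 probe sets tested, 1426 (9.2%) were called, 678 higher (4.37%) and 748 lower (4.83%). Among the 5552 named genes, 188 rose (3.39%) and 409 fell (7.37%). A change of over 2-fold was measured for 96 of the probe sets that rose and 192 of those that fell. Over all probe sets the diet groups did not overlap for 4.03% that were higher and 4.27% that were lower. The restricted and ad libitum arrays did not overlap for 171 named genes that were higher (3.08%) and 364 that were lower (6.56%). The median difference was 0.02 over all named genes. Without ad libitum replicate 4, the count of called probe sets was 839, and without restricted replicate 5 it was 1012 (6.53%). Fitted alone, numbers 1 and 2 gave 3 calls (0.0194%) and numbers 3 to 5 gave 898 (5.79%). With the GAPDH and actin control ratios as covariates 610 were called (3.94%), and with array weights 2111 (13.6%), of which 1114 were higher. Of the 1426 calls, 1424 had the same sign in numbers 1 and 2 alone, and all 1426 did in numbers 3 to 5 alone and without restricted replicate 5. These fits reuse arrays on which the calls were made. Agreement in sign was thus largely set in advance and is given only as a description.

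**Figure D2:**
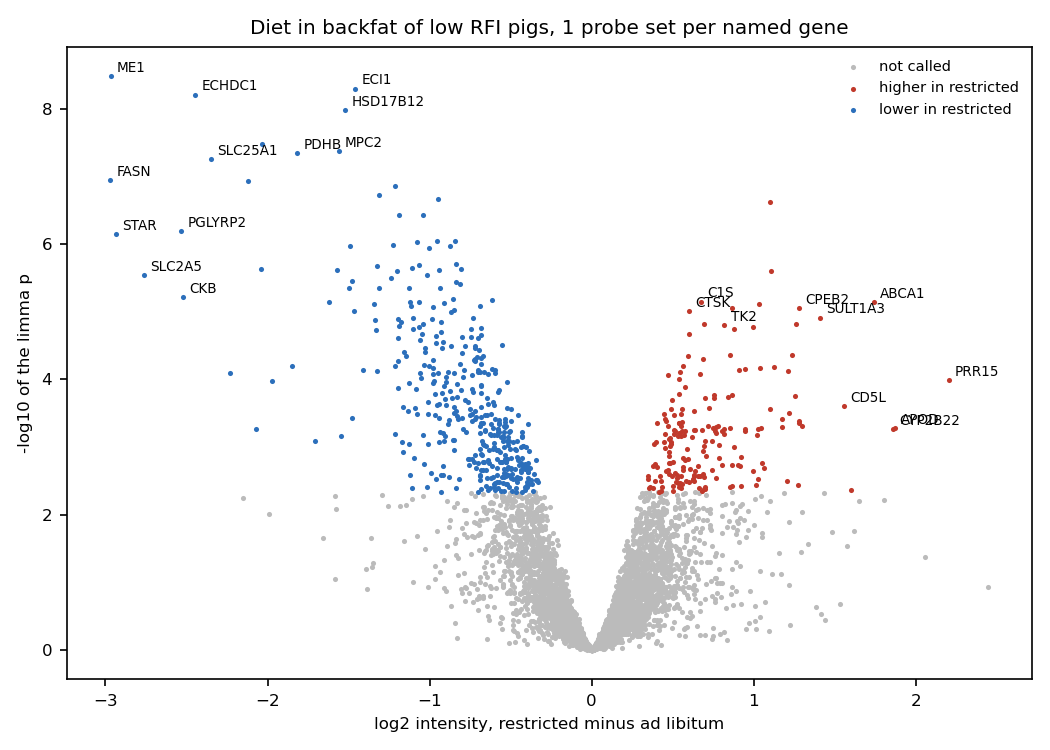
Each point is a named gene tested in low RFI backfat, with its log2 difference (restricted minus ad libitum) on the horizontal axis and -log10 of its unadjusted limma p on the vertical axis. Red points rose and blue points fell in restricted pigs. The left arm is longer, with FASN and ME1 at -2.97, while the far right of the called genes is PRR15 at 2.20.

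Of 14 tested genes of fatty acid synthesis 6 fell, 1 rose and 7 were not called, with a median of -0.30. The decreases of FASN, SCD, ACSS2 and ACACA were the steepest of the list. FASN, fatty acid synthase, had log2 intensities of 10.52, 11.53, 11.31, 11.62 and 10.92 on the restricted arrays, against 13.70, 13.83, 14.34, 14.47 and 14.41 on the ad libitum arrays. It fell by 2.97 (SE 0.377, limma adjusted p = 0.000112), a 7.83-fold difference, and its other 3 probe sets fell too, with differences of -4.05 to -1.18. ACACA, the acetyl-CoA carboxylase that makes the malonyl-CoA used by FASN, stood at 6.83, 5.58, 6.22, 6.70 and 6.64, against 7.74, 7.89, 8.83, 8.29 and 9.08 in ad libitum pigs. In neither gene did a restricted array reach an ad libitum array. The difference for ACACA was -1.97 (SE 0.413, limma adjusted p = 0.005), and all 5 restricted arrays lay under the 40th percentile of their array, so this fold rests on dim restricted values. SCD, the desaturase that makes oleate from stearate, stood at 12.86, 13.67, 13.07, 11.92 and 11.28 in restricted pigs and at 14.52, 14.52, 14.59, 14.76 and 14.77 in ad libitum pigs. Its difference was -2.07 (SE 0.507, limma adjusted p = 0.0138), with a wide scatter among restricted and a narrow one among ad libitum arrays. SCD no longer passed the test with the control ratios as covariates (-2.02) or in numbers 3 to 5 alone (-2.62). ACSS2, which activates acetate for lipogenesis, fell by 2.04, and ELOVL6, which lengthens palmitate, fell by 1.03, with differences of -2.66 to -2.52 for its other 3 probe sets.

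The rest of the fatty acid synthesis list gave smaller or no calls. ACSL1, an acyl-CoA synthetase, fell by 0.54, and ACSL5, its relative, rose by 0.50 (both named after their values were seen). ACSL5 passed narrowly, and it was not called when any of ad libitum replicates 2 to 5 or restricted replicates 3 or 5 was left out. SREBF1, a transcription factor that drives lipogenic genes, read 5.33, 7.13, 7.70, 7.22 and 7.41 on the restricted arrays and 6.86, 6.16, 7.24, 7.98 and 7.45 on the ad libitum arrays. It differed by -0.18 (95% interval -0.96 to 0.61) and was not called. The list's mean level was 9.47 to 9.84 on restricted and 10.19 to 10.48 on ad libitum arrays, without overlap.

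Of 12 genes for citrate export and NADPH supply 7 fell and none rose, with a median of -0.84. ME1, the cytosolic malic enzyme that yields NADPH, stood at 10.41, 11.56, 11.36, 10.86 and 10.60 on the restricted arrays, against 13.44, 13.98, 13.69, 14.35 and 14.17 on the ad libitum arrays. Its difference was -2.97 (SE 0.304, limma adjusted p = 1.93e-05), and the groups were more than 1 log2 unit apart. SLC25A1, which carries citrate out of mitochondria, stood at 10.14, 11, 11.26, 11.03 and 11.03 in restricted pigs and at 12.45, 12.66, 13.29, 14.00 and 13.81 in ad libitum pigs (difference -2.35, SE 0.285, limma adjusted p = 7.07e-05). IDH1, the NADP-linked isocitrate dehydrogenase of the cytosol, fell by 1.31. The pentose phosphate enzymes PGD (-1.49), TKT (-1.31) and TALDO1 (-1.10) and the malate dehydrogenase MDH1 (-0.57), named after their values were seen, fell as well. For each of those 7 genes the groups did not overlap. ME2, ME3, RPE, RPIA and SLC25A11, the other 5, lay between -0.41 and 0.05 and were not called (named after their values were seen). The counts were 7 and 0 without restricted replicate 5 too, with medians of -0.81 for numbers 1 and 2 alone and -1.0 for numbers 3 to 5 alone.

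Several of the steepest decreases were in genes outside these lists. ECHDC1, which removes faulty ethylmalonyl-CoA made by acetyl-CoA carboxylase, stood at 9.43, 10.23, 9.71, 9.69 and 9.5 on the restricted arrays and at 11.63, 12.68, 11.88, 12.54 and 12.05 on the ad libitum arrays. It fell by 2.45 (SE 0.26, limma adjusted p = 1.93e-05). SLC2A5, the fructose transporter, stood at 7.56, 7.74, 7.61, 7.57 and 6.71 in restricted pigs, against 9.44, 10.88, 10.26, 10.72 and 9.70 in ad libitum pigs (difference -2.76, SE 0.436, limma adjusted p = 0.000638). Both genes separated the diets on every array. CKB, the brain-type creatine kinase, fell by 2.52, with 7.34 to 8.54 on restricted and 9.78 to 11.53 on ad libitum arrays. PGLYRP2, a peptidoglycan-cleaving amidase, fell by 2.53, and CEACAM16, a member of the carcinoembryonic antigen family, by 2.23.

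Genes for the storage of fatty acids as triglyceride changed in part. DGAT2 and DGAT1, which catalyse the last step of triglyceride synthesis, fell by 0.97 and 0.96. DGAT2 stood at 12.27 to 13.03 on restricted and at 13.13 to 14.13 on ad libitum arrays. GPD2, the mitochondrial glycerol-3-phosphate dehydrogenase, fell by 0.92, with all 5 restricted arrays under the 40th percentile, but not in numbers 3 to 5 alone (-0.70). AGPAT1, an acyltransferase of phosphatidate synthesis, fell by 1.16 (named after its values were seen). The remaining call among the 14 genes was an increase. LPCAT4, a lysophospholipid acyltransferase, stood at 5.25, 6.90, 6.93, 7.20 and 7.70 in restricted pigs, against 6.14, 3.72, 5.14, 5.06 and 5.93 in ad libitum pigs (difference 1.6, limma adjusted p = 0.0482). It was above the 40th percentile on no low RFI ad libitum array and lost its call when any of restricted replicates 2 to 5 or ad libitum replicates 2, 3 or 4 was left out (1.23 to 1.58). GPAM and AGPAT2, which act earlier in the pathway and were named after their values were seen, differed by -0.14 and -0.31 and were not called. The list's median was -0.24.

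**Figure D3:**
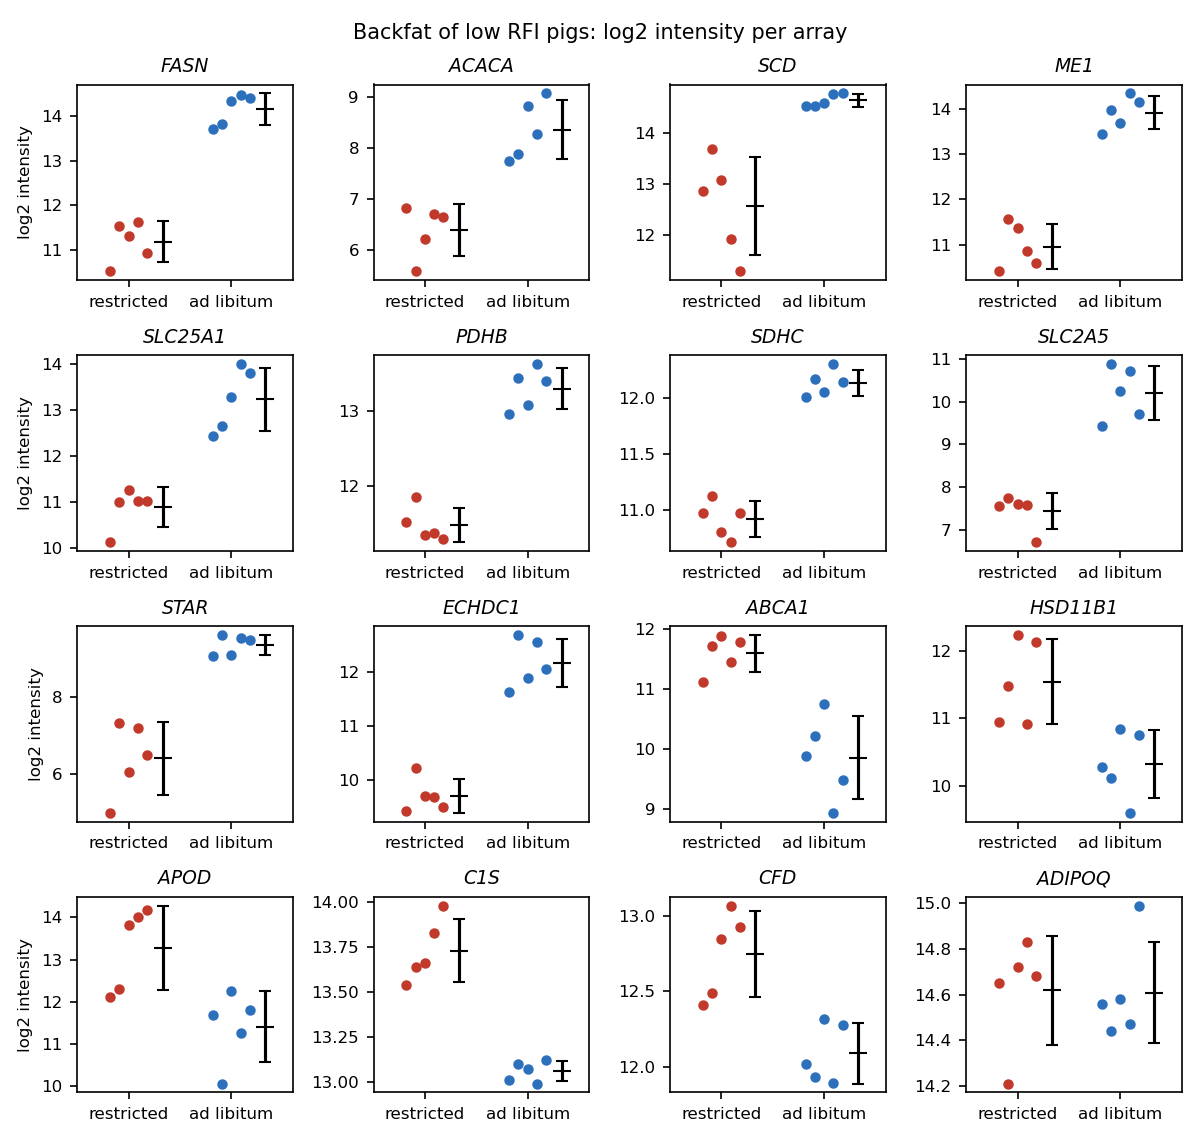
Log2 intensity of 16 genes on the low RFI backfat arrays. Each point is an array, restricted at left and ad libitum at right, and the bars give the mean ± SD (n = 5 each). FASN, ACACA, SCD, ME1, SLC25A1, PDHB, SDHC, SLC2A5, STAR and ECHDC1 were lower and ABCA1, HSD11B1, C1S and CFD higher without overlap, APOD was higher with overlap, and ADIPOQ was not called.

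Genes of fat release were not called, though a pair of them came close. Of 11 genes for lipolysis and lipid droplets none rose and none fell by the limma test, against 10.8% of named genes called, and 2 had an unadjusted p under 0.05. The median was -0.06. Those 2, AQP3 and PNPLA3, were named after their values were seen. AQP3, a channel for water and glycerol, stood at 11.27, 12.33, 12.75, 12.95 and 13.61 in restricted pigs, against 12.51, 10.79, 11.07, 11 and 11.61 in ad libitum pigs, and its difference of 1.19 just missed the threshold (SE 0.374, limma adjusted p = 0.0506). AQP3 was called under 9 of the 23 alternatives, quantile normalization among them, and differed by 1.88 in numbers 3 to 5 alone and by 0.15 in numbers 1 and 2 alone. PNPLA3, a relative of PNPLA2, stood at 7.02, 6.76, 5.78, 6.14 and 7.53 on restricted arrays, against 6.51, 8.24, 8.62, 8.97 and 8.79 on ad libitum arrays (difference -1.58, SE 0.54, limma adjusted p = 0.0697). It was called under 3 alternatives, with -2.31 in numbers 3 to 5 alone, and fell by 1.79 in the high RFI line. In both genes ad libitum replicate 1 lay among the restricted values. The hormone-sensitive lipase gene LIPE stood at 11.14, 12.47, 12.92, 12.46 and 13.17 on the restricted arrays and at 12.88, 12.40, 12.88, 12.65 and 12.96 on the ad libitum arrays. The difference was -0.32, with a 95% interval of -0.91 to 0.27. With the control ratios as covariates LIPE differed by -0.75 and just missed the threshold (SE 0.21, limma adjusted p = 0.0504). In numbers 3 to 5 alone it differed by 0.02. PNPLA2, the adipose triglyceride lipase, differed by -0.06 (95% interval -0.51 to 0.39). PDK4, a kinase that shuts off pyruvate dehydrogenase in fasting, differed by 0.11 (95% interval -0.67 to 0.89). CPT1A, which commits fatty acids to oxidation, differed by 0.42 (95% interval -0.02 to 0.86). These intervals still allow modest changes in either direction for LIPE, PNPLA2 and PDK4.

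Of 10 genes that bring fatty acids into the cell 4 fell and none rose, with a median of -0.27. LPL, the lipase that frees fatty acids from circulating lipoproteins, had 13.23, 13.97, 13.53, 13.80 and 13.62 in restricted pigs and 14.10, 14.03, 14.00, 13.95 and 14.14 in ad libitum pigs. Restricted replicate 2 stood above ad libitum replicate 4, and the difference was -0.41 (SE 0.127, limma adjusted p = 0.0447). LPL lost its call when any low RFI array except restricted replicates 2 and 4 was left out, with values of -0.44 to -0.31. Its other probe set fell by 1.23. FABP5, a fatty acid binding protein, differed by -0.43 and lost its call without restricted replicates 1, 3 or 5 or ad libitum replicates 4 or 5 (-0.44 to -0.34), while its other probe set read 0.49. CAV2, a caveolin, fell by 0.57, and GOT2, an aspartate aminotransferase that also binds fatty acids at the plasma membrane, by 0.80. CAV2 and GOT2 lost their calls with the control ratios as covariates, and LPL and FABP5 in numbers 3 to 5 alone. The count of decreases was thus 2 with the control ratios, and it was 2 without any of restricted replicates 1, 3 or 5 or ad libitum replicates 4 or 5.

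Of 14 genes of cholesterol synthesis 6 fell and none rose, with a median of -0.71. ACAT2, which starts the pathway from acetyl-CoA, stood at 8.55, 9.40, 8.93, 8.84 and 9.53 on the restricted arrays, against 9.93, 10.74, 10.63, 11.16 and 10.90 on the ad libitum arrays (difference -1.62, SE 0.274, limma adjusted p = 0.00106). FDPS, the farnesyl diphosphate synthase, fell by 1.5 and CYP51, the lanosterol demethylase, by 1.34. The list level was 8.67 to 9.35 on restricted and 9.37 to 10.10 on ad libitum arrays. Numbers 1 and 2 alone gave a median of -0.48 and numbers 3 to 5 alone one of -0.75.

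Genes of sterol movement and steroid handling went both ways. STAR, which carries cholesterol into mitochondria for steroid synthesis, stood at 4.99, 7.32, 6.04, 7.19 and 6.48 in restricted pigs and at 9.05, 9.59, 9.07, 9.51 and 9.47 in ad libitum pigs. It fell by 2.93 (SE 0.42, limma adjusted p = 0.000289), its other probe set fell by 3.01, and 3 of 5 restricted arrays were under the 40th percentile. ABCA1, the pump that exports cholesterol to lipoproteins, stood at 11.12, 11.72, 11.88, 11.44 and 11.78 in restricted pigs, against 9.88, 10.21, 10.75, 8.94 and 9.48 in ad libitum pigs. It rose by 1.74 (SE 0.293, limma adjusted p = 0.00106), and every restricted array was above every ad libitum array. APOD, a lipocalin that binds small lipophilic molecules, stood at 12.11, 12.31, 13.83, 14.00 and 14.18, against 11.68, 10.07, 12.25, 11.27 and 11.82 in ad libitum pigs (difference 1.87, SE 0.457, limma adjusted p = 0.0137). Its restricted values were low on replicates 1 and 2 and replicate 1 overlapped the ad libitum range. In the list of sterol efflux and lipid carriers 3 of 13 genes rose and 2 fell, with a median of 0.07. The others were APOA1, the main protein of high density lipoprotein, at 0.72, and TSPO, an outer mitochondrial membrane protein, at -0.73 (TSPO named after its values were seen). APOA1 was highest on restricted replicate 5 (13.53), the array with hepatocyte signal, and differed by 0.54 without it, still called. Its restricted replicate 1 (12.08) lay within the ad libitum values of 12.04 to 12.18. APOA1 did not pass with the control ratios as covariates. The count of the list that fell was 1 without any of restricted replicates 1, 2 or 4 or ad libitum replicates 3 or 4.

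HSD11B1, the enzyme that regenerates active cortisol in fat, stood at 10.94, 11.48, 12.23, 10.92 and 12.13 on the restricted arrays and at 10.29, 10.12, 10.85, 9.61 and 10.75 on the ad libitum arrays. It rose by 1.22 (SE 0.282, limma adjusted p = 0.0102). NR3C1, the glucocorticoid receptor, rose by 0.53 (named after its values were seen). NR3C1 lost its call without any of restricted replicates 3 or 4 or ad libitum replicates 4 or 5, after quantile normalization and in numbers 3 to 5 alone. HSD11B1 did not pass in numbers 3 to 5 alone (1.36) or with the control ratios as covariates (0.87). Of 17 genes known to respond to glucocorticoids, 2 rose and 1 fell, with a median of 0.22 and no increase once the control ratios were covariates. CRISPLD2, a secreted protein induced by glucocorticoids in other cells, rose by 0.80 but did not pass in numbers 3 to 5 alone (0.67), while FKBP5, a chaperone induced by them, differed by 0.64 (95% interval 0.00 to 1.27) and was not called. Restricted replicate 5 had the highest FKBP5 reading, 12.01. GLUL, the glutamine synthetase, rose by 0.56 but lost its call without any of restricted replicates 2 to 5 or ad libitum replicates 2, 3 or 5 (0.46 to 0.58). CDKN1A, a cell cycle inhibitor, fell by 1.16. Among 7 genes for steroid enzymes and receptors 2 rose and 2 fell. The decreases were in AKR1CL1, an aldo-keto reductase, by 2.12, and in HSD17B12, which also takes part in fatty acid elongation, by 1.52. The other 2 probe sets of AKR1CL1 read -1.01 and 0.28 and were not called.

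Many mitochondrial genes fell. Pyruvate enters the matrix through a carrier that includes MPC2 and is turned into acetyl-CoA by pyruvate dehydrogenase. PDHB, a subunit of that enzyme, stood at 11.52, 11.85, 11.35, 11.37 and 11.29 in restricted pigs, against 12.95, 13.43, 13.08, 13.62 and 13.39 in ad libitum pigs. It fell by 1.82 (SE 0.218, limma adjusted p = 6.43e-05). MPC2 stood at 11.90, 12.52, 12.62, 12.37 and 12.57, against 13.53, 14.03, 13.95, 14.18 and 14.09 in ad libitum pigs (difference -1.56, SE 0.186, limma adjusted p = 6.43e-05). The groups were well apart in both genes. MDH2, the matrix malate dehydrogenase, fell by 1.10. In the list of pyruvate dehydrogenase and the tricarboxylic acid cycle 11 of 23 genes fell and none rose, with a median of -0.49. The count was 6 with the control ratios as covariates and 6 in numbers 3 to 5 alone.

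Respiratory chain subunits fell with smaller, tighter differences. SDHC, a membrane anchor of complex II, stood at 10.98, 11.13, 10.81, 10.72 and 10.98 on the restricted arrays and at 12.01, 12.17, 12.05, 12.30 and 12.14 on the ad libitum arrays. It fell by 1.21 (SE 0.156, limma adjusted p = 0.00012). NDUFA10, of complex I, stood at 9.29, 9.32, 9.61, 9.48 and 9.60 in restricted pigs, against 10.13, 10.55, 10.63, 10.75 and 10.42 in ad libitum pigs (difference -1.04, SE 0.143, limma adjusted p = 0.000207). In both subunits every restricted array lay below every ad libitum array. ATP5B, the catalytic beta subunit of ATP synthase, fell by 0.95. UQCR10 of complex III fell by 0.87, and COX6A1 of complex IV by 0.80.

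By complex, 24 of 33 tested genes of complex I fell (median -0.66), as did 4 of 4 of complex II (-0.86), 2 of 2 of complex III (-0.77), 4 of 7 of complex IV (-0.80) and 7 of 14 of complex V (-0.54). No gene of these complexes rose, and all 33 complex I genes had a negative difference. The mean level of complex I was 10.74, 10.80, 10.68, 10.64 and 10.68 on the restricted arrays and 10.94, 11.38, 11.24, 11.59 and 11.44 on the ad libitum arrays. The lowest ad libitum value, that of replicate 1, was above the highest restricted one. With the GAPDH and actin control ratios as covariates the counts were 10, 3, 1, 1 and 4, the complex I count was 14 without ad libitum replicate 4, and the complex IV count was 2 in numbers 3 to 5 alone. With the muscle marker mean as a covariate the complex I count was 25. The part of RNA quality in these decreases was not tested beyond these fits. In bulk tissue, fewer cells of a type and less RNA per cell cannot be told apart, here or for any gene in the text.

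**Figure D4:**
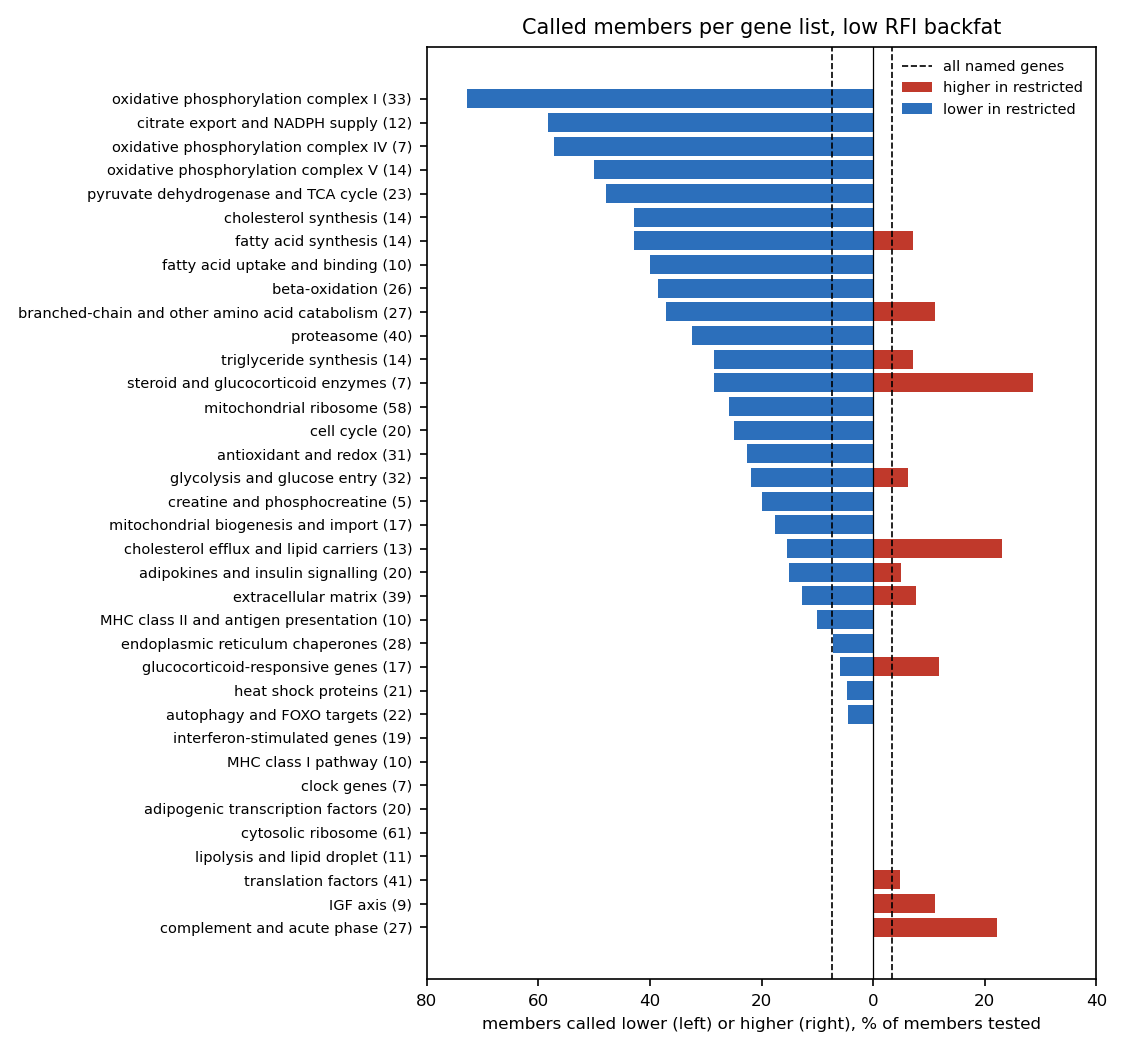
Share of each list's tested genes that fell (blue, left) or rose (red, right) in restricted low RFI backfat, in percent, with the number tested in parentheses, for lists other than cell type markers with at least 5 tested genes. The dashed lines mark the shares over all named genes, 7.37% lower and 3.39% higher. Complex I is longest at left, with 24 of 33 genes.

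Of 26 genes of fatty acid oxidation 10 fell, none rose and the median was -0.47, while the gate enzyme CPT1A was not called. ECI1, an isomerase needed to oxidise unsaturated fatty acids, stood at 11.07, 11.24, 11.28, 11.41 and 11.44 in restricted pigs, against 12.36, 12.82, 12.81, 13.09 and 12.68 in ad libitum pigs (difference -1.46, SE 0.154, limma adjusted p = 1.93e-05). ACADL, the long-chain acyl-CoA dehydrogenase, fell by 0.95, and ETFA, which passes its electrons to the chain, by 0.85. ACADM, ACADVL and HADHA, further core enzymes of the pathway named after their values were seen, differed by -0.20, -0.10 and 0.37 and were not called.

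Genes of mitochondrial translation followed to a lesser degree. Of 58 genes of the mitochondrial ribosome 15 fell and none rose (median -0.34), among them MRPL37 at -0.81, MRPS30 at -0.68 and MRPL13 at -0.60. The count was 8 without ad libitum replicate 2 and 8 without ad libitum replicate 4, 6 with the control ratios as covariates and 5 in numbers 3 to 5 alone. Cytosolic ribosomal protein genes gave no limma call among 61, against 10.8% of named genes called. An unadjusted p under 0.05 was found for 2 of them, and their median was 0.10, with a range of -0.24 to 0.40. Of 41 translation factors EIF4B rose by 0.51 and EIF3E by 0.48, and none fell (4.9% called, against 10.8% of named genes). Both initiation factors missed the threshold once the control ratios were covariates.

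Of 27 genes of branched-chain and other amino acid catabolism 10 fell, 3 rose and 14 were not called, with a median of -0.67. The 3 with the lowest p were BCAT2, IVD and MCCC2. BCAT2, the mitochondrial aminotransferase that starts branched-chain breakdown, stood at 7.41, 7.58, 7.83, 7.87 and 7.79 on the restricted arrays and at 8.55, 8.75, 9.29, 8.80 and 8.74 on the ad libitum arrays. It fell by 1.13 (SE 0.184, limma adjusted p = 0.000805). IVD, which oxidises the leucine product isovaleryl-CoA, fell by 1.47, and MCCC2, the next carboxylase of leucine breakdown, by 1.08. The 3 that rose were SHMT1 (0.94) and MAT2A (0.56), of folate and methionine metabolism (named after their values were seen), and GLUL. In numbers 3 to 5 alone 5 fell, and with the control ratios as covariates 1 rose.

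Genes of glucose use showed a mixed picture. HK1, hexokinase 1, fell by 1.08 and PGK1, the phosphoglycerate kinase, by 0.96, as did SLC2A5 above. Of 32 genes 7 fell and 2 rose. The 2 that rose, KHK, the fructose kinase (0.81), and PKM, pyruvate kinase (0.34), were named after their values were seen. KHK overlapped between the groups. PKM was not called without restricted replicate 5 (0.36). The count that rose was also 1 without any of restricted replicates 3 or 4 or ad libitum replicates 1, 3, 4 or 5. With the control ratios as covariates 3 of the 32 genes fell, and HK1 was not among them. SLC2A4, the insulin-responsive glucose transporter, stood at 6.73, 4.91, 7.98, 7.42 and 7.63 in restricted pigs and at 7.44, 7.48, 8.45, 8.27 and 8.17 in ad libitum pigs. The difference of -1.03 did not pass (limma adjusted p = 0.153), and the other SLC2A4 probe set read 0.21 and was not called. The list level followed the muscle marker signal, with 10.09 and 10.28 on restricted replicates 1 and 4, 9.56 to 9.94 on the other restricted arrays, 10.32 to 10.64 on ad libitum replicates 2 to 4 and 9.60 and 9.76 on ad libitum replicates 1 and 5. Its median was -0.18, and 0.06 with the control ratios as covariates. The part of muscle RNA in this list was not tested beyond the muscle covariate, which gave a median of -0.32.

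PCK1, which makes glycerol phosphate for re-esterification in fat, stood at 10.65, 10.78, 11.11, 11.45 and 11.17 on the restricted arrays, against 13.07, 9.84, 9.82, 9.16 and 8.89 on the ad libitum arrays. Ad libitum replicate 1 was above every restricted array and the other 4 below all of them. The difference of 0.88 (95% interval -0.54 to 2.29) was not called.

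Some genes of protein turnover and of defence against oxidation fell. Of 40 proteasome genes 13 fell and none rose, with a median of -0.30. PSMB5, which carries the chymotrypsin-like activity, stood at 10.76, 10.64, 10.86, 10.92 and 11.01 in restricted pigs, against 11.52, 11.63, 11.69, 12.01 and 11.53 in ad libitum pigs (difference -0.84, SE 0.129, limma adjusted p = 0.000542). The proteasome count was 7, 5 and 6 without ad libitum replicates 2, 4 or 5, 6 and 8 without restricted replicates 1 or 5, 3 with the control ratios as covariates and 2 in numbers 3 to 5 alone. NQO1, a quinone reductase, fell by 1.48, PRDX3, the mitochondrial peroxiredoxin, by 0.81 and PRDX2, its cytosolic relative, by 0.61. They were among 7 of 31 antioxidant genes that fell, with no increase, a median of -0.19 and 4 decreases with the control ratios as covariates. Autophagy genes gave 1 call in 22 (4.5%), below the 10.8% of named genes called. It was TP53INP2, a regulator of autophagosome formation, at -1.07, which did not pass in numbers 3 to 5 alone (-0.95).

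Adipokine and insulin signalling genes gave 1 increase and 3 decreases among 20, a larger share called than the 10.8% of named genes. The other 16 were not called, and this difference in share was not tested. LEP, the leptin gene, stood at 7.62, 9.20, 9.13, 8.74 and 10.20 on the restricted arrays and at 6.67, 8.45, 10.16, 9.82 and 10.24 on the ad libitum arrays, and its difference of -0.09 had a 95% interval of -1.28 to 1.11. The adiponectin receptor genes ADIPOR1 and ADIPOR2 fell by 0.68 and 0.70. ADIPOR2 stood at 12.60, 12.90, 13.40, 13.00 and 12.97 in restricted pigs, against 13.58, 13.55, 13.58, 13.78 and 13.88 in ad libitum pigs, without overlap, but it did not pass in numbers 3 to 5 alone (-0.62). AKT2, a kinase of insulin signalling, fell by 0.58 (named after its values were seen), though not in numbers 3 to 5 alone (-0.51). CFD, the complement protease adipsin that adipocytes secrete, rose by 0.67 (SE 0.137, limma adjusted p = 0.0043), with 12.41, 12.49, 12.85, 13.07 and 12.93 on restricted arrays, against 12.02, 11.93, 12.32, 11.89 and 12.28 on ad libitum arrays. PPARG, the master regulator of fat cells, differed by -0.27 (95% interval -0.66 to 0.12). None of the 20 adipogenic transcription factor genes was called by limma, against 10.8% of named genes, and 1 had an unadjusted p under 0.05. IGF1, a growth factor, differed by -0.56 and was not called. Its receptor IGF1R rose by 0.70, while the other IGF1R probe set read 0.16 and was not called. IGF1R lost its call without any of restricted replicates 3 to 5 or ad libitum replicates 2, 4 or 5 (0.61 to 0.71).

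Of 27 genes for complement and acute phase 6 rose and none fell, with a median of 0.77, and all 27 differences were positive. C1S, a protease of the first complement component, stood at 13.54, 13.64, 13.66, 13.83 and 13.98 on the restricted arrays and at 13.01, 13.10, 13.07, 12.99 and 13.12 on the ad libitum arrays. It rose by 0.67 (SE 0.113, limma adjusted p = 0.00106). C1R, its partner protease, stood at 12.52, 12.08, 12.52, 12.87 and 13.17, against 11.68, 11.60, 12.08, 11.56 and 11.68 in ad libitum pigs (difference 0.91, SE 0.185, limma adjusted p = 0.00403). Both were highest on restricted replicate 5, and in both genes every restricted array was above every ad libitum array before rounding. The other 3 that rose besides C1S, C1R and CFD were C2 (1.05), CD55 (0.81) and CD46 (0.58), named after their values were seen. Without restricted replicate 5, whose hepatocyte markers averaged 12.83, 4 rose and the median was 0.37. C2 and CD55 were not called without that array. Liver-made acute phase genes such as HP, haptoglobin, at 14.20 on restricted replicate 5 and 3.38 to 7.03 on the other restricted arrays, were not called (HP named after its values were seen).

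The remaining large increases were in genes of varied function. PRR15, a proline-rich protein, stood at 6.78, 7.82, 7.14, 6.96 and 6.44 in restricted pigs, against 5.99, 5.34, 5.53, 2.59 and 4.66 in ad libitum pigs (difference 2.20, SE 0.46, limma adjusted p = 0.00491). It was above the 40th percentile on 3 restricted and 0 ad libitum arrays, so its fold rests on dim ad libitum values, and it was not called with the control ratios as covariates (1.82). CYP2B22, a cytochrome P450 of drug metabolism, rose by 1.86, and SULT1A3, a sulfotransferase, by 1.41. CYP2B22 did not pass in numbers 3 to 5 alone (1.75). SULT1A3 stood at 11.95, 12.50, 13.26, 13.00 and 12.96 on restricted arrays and at 11.47, 11.57, 10.91, 11.30 and 11.37 on ad libitum arrays. CILP, a cartilage matrix protein also found in other connective tissue, rose by 1.30, SCARA5, a ferritin receptor, by 1.28 and CPEB2, which binds the tails of messenger RNAs, by 1.28. CILP and SCARA5 did not pass in numbers 3 to 5 alone (1.32 and 1.37), nor did CILP with the control ratios as covariates (1.29). CD5L, secreted by macrophages, stood at 6.65, 7.16, 7.32, 7.18 and 9.14, against 6.29, 5.73, 6.30, 5.50 and 5.82 in ad libitum pigs, and rose by 1.56, or by 1.15 without restricted replicate 5. CD5L was above the 40th percentile on 4 restricted and 0 ad libitum low RFI arrays, so its fold rests on dim ad libitum values. Like PRR15 and LPCAT4, it passed the filter only through restricted arrays of both lines. CD5L was not called with the control ratios as covariates (1.26). GPNMB, a glycoprotein of lipid-laden macrophages, rose by 1.23 and was the 1 call among 17 macrophage markers (5.9%, against 10.8% of named genes). The median of these markers was 0.36, and 0.14 without restricted replicate 5. KLKB1, plasma prekallikrein, rose by 1.27 but lost its call without any low RFI array except restricted replicate 1 and ad libitum replicate 2 (0.97 to 1.35).

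The same diets were set side by side in the high RFI line. There 1398 probe sets were called (9.02%), 4.47% higher and 4.55% lower, and 824 were called in both lines in the same direction, which is 57.8% of the low RFI calls and 58.9% of the high RFI calls. None was called in opposite directions. Of the 1426 low RFI calls, 1420 (99.6%) had the same sign in high RFI pigs, against 79.0% of all probe sets. Both contrasts come from different arrays but share 1 estimate of spread, and across probe sets their differences had a Pearson correlation of 0.753, given as a description. FASN differed by -2.97 in low and -2.55 in high RFI pigs, ME1 by -2.97 and -2.33, ABCA1 by 1.74 and 1.99 and HSD11B1 by 1.22 and 1.79. Complex I had 24 of 33 genes lower in low and 23 in high RFI pigs, with medians of -0.66 and -0.69. Citrate export and NADPH supply had 7 and 6 of 12 lower. In the high RFI line 3.84% of named genes rose and 7.15% fell. The proteasome had 13 of 40 lower in low and 5 in high RFI pigs, and this difference in counts was not tested.

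No probe set passed the limma test of the difference between the lines (smallest adjusted p = 0.514). At an unadjusted p under 0.05 there were 244 (1.57%), a share below the 0.05 expected where no probe set differs. The 5 named genes with the smallest p for it are given as values. TRMT61A, a tRNA methyltransferase, stood at 4.86, 4.37, 5.40, 4.29 and 5.72 in restricted low RFI pigs, against 6.32, 6.77, 6.84, 6.90 and 7.04 in ad libitum low RFI pigs. It fell by 1.85 there, with all 5 restricted arrays under the 40th percentile, and differed by 0.08 in high RFI pigs. TK2, the mitochondrial thymidine kinase, stood at 7.80, 7.80, 8.02, 7.95 and 7.98, against 7.19, 7.26, 6.75, 7.25 and 7.0 in ad libitum low RFI pigs, a rise of 0.82, with 0.00 in high RFI pigs. PTP4A2, a tyrosine phosphatase, differed by 0.13 in low RFI pigs and rose by 1.08 in high RFI pigs. SLC9A5, a sodium and proton exchanger, differed by 1.30 in low and -1.23 in high RFI pigs, called in neither, and SLA-DOA, an MHC class II chain, by -0.60 in low and 0.91 in high RFI pigs, called in the high RFI line. For FASN the difference between the lines was -0.42 (95% interval -1.53 to 0.69), and for ME1 it was -0.64 (95% interval -1.53 to 0.26), so moderate differences between the lines remain possible at this number of arrays.

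**Figure D5:**
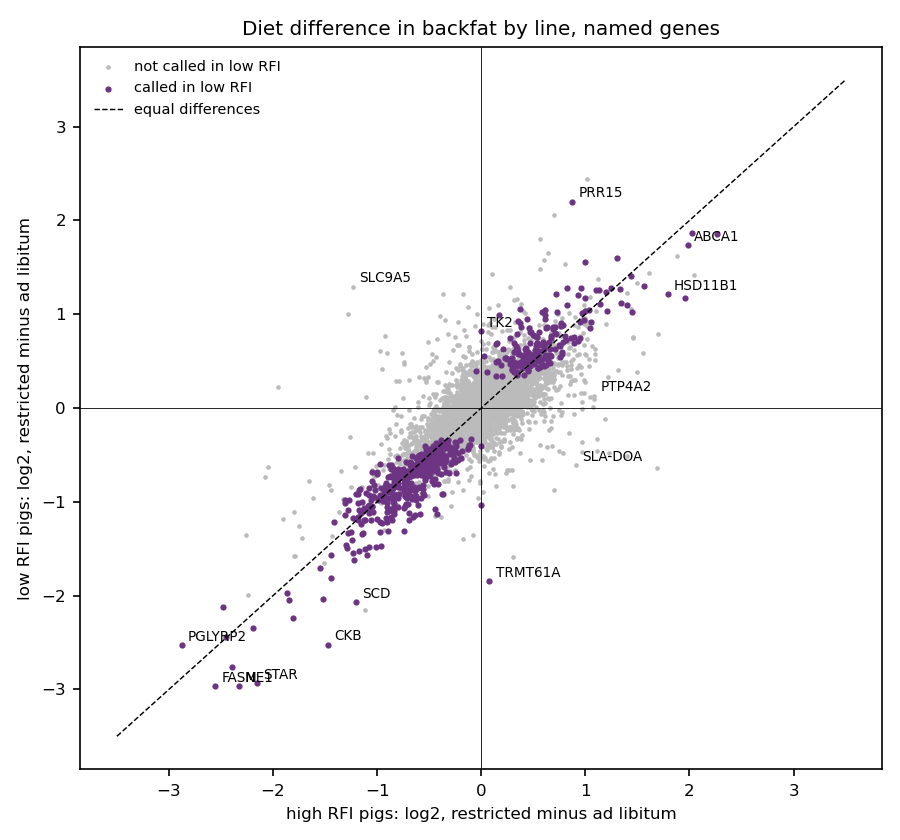
Diet difference of each named gene in low RFI pigs (vertical axis) against that in high RFI pigs (horizontal axis), both log2, restricted minus ad libitum. Purple points were called in low RFI pigs, and the dashed line marks equal differences. FASN lies at -2.97 and -2.55 and HSD11B1 at 1.22 and 1.79, while TRMT61A and TK2 lie near 0 in high RFI pigs.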

How the data were processed

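The deposited values were linear intensities, 1 per probe set and array, and affy and MAS5 are the tools that the submitters' processing notes list, with neither role nor version. The trimmed mean intensity was 500.09 to 500.11 on the 10 arrays, so the arrays share a scale and none was added. The scaling step itself is not given in the sources used here. Of 24123 probe sets, 124 controls were left out. The platform annotation gave 1 symbol to 10069 of the other 23999, several to 198 and none to 13732, and 9961 matched RefSeq by Entrez ID with 0 symbols updated.

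The intensities were converted to log2. Testing was limited to probe sets whose level lay above the array's 40th percentile on 5 or more of the 20 backfat arrays. A group-means model over those 20 arrays (lmFit, then eBayes with an intensity trend, limma 3.58.1, R 4.3.3) gave each contrast. Single values per array were compared by exact permutation, two-sided. Summaries used pandas 2.3.3, scipy 1.17.1 and numpy 2.4.6 under Python 3.11.15, and plots matplotlib 3.10.9. The fit was first tested on simulated data with 200 changed probe sets. It recovered 5 of 50 changes of 0.5 log2, 34 of 50 of 1, 47 of 50 of 1.5 and 49 of 50 of 2. Of its 141 calls 6 were false. Most changes of 0.5 were thus missed in that setting, so a gene not called may still have changed.

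The genes named are the 12 largest increases and 12 largest decreases among called genes, for each list with a call its lowest p-values, up to 3 genes, a fixed set of metabolic genes, and the 5 smallest p for the difference between lines. Others are marked as named after their values were seen. Members and lists were chosen with earlier results of these data known. ACLY and PLIN1 of the fixed set were not analysed here, and PPARGC1A did not pass the filter. Alternatives covered scaling, filter, offset, intensity trend, array weights, the replicate block, the arrays fitted, covariates and each array left out.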

Additional observations from a re-analysis of the deposited data

Results flagged for a closer look

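Each group of 5 low RFI arrays was searched for an array whose gap to its nearest neighbour was large against the group's range. Of 262 groups, 20 held such an array. Chance flags about 1 in 20 groups.

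Restricted replicate 5 was the outlying array 4 times. It stood at 12.83 for the hepatocyte marker mean (others 7.23 to 8.77), at 9.14 for CD5L (others 6.65 to 7.32), at 6.5 for CENPF, a kinetochore protein (others 5.73 to 5.93), and at 6.71 for SLC2A5 (others 7.56 to 7.74). Restricted replicate 1 was low for CKB (7.34), EIF4B (12.70), SLC25A1 (10.14) and SREBF1 (5.33) and high for CRYAB, a small heat shock protein (11.16). Restricted replicate 2 was low for ADIPOQ (14.21) and high for CYP51 (10.76), the actin 3' to 5' log2 ratio (3.44, others 1.53 to 1.79) and the keratinocyte marker mean (9.03). Restricted replicate 3 was high for NQO1 (10.37) and low for SLA-DOA (6.12).

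Among ad libitum arrays, replicate 1 was high for PCK1 (13.07, others 8.89 to 9.84) and low for MRPL13 (9.96). Replicate 3 was high for C1R (12.08). Replicate 5 was high for ADIPOQ (14.99) and FABP5 (14.58).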

How the results depend on the processing

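All 102 called genes among the 120 named kept their sign under each of the 23 alternatives that tested them, which were 22 for the 9 genes that the stricter filter left out. The alternatives refit the arrays on which the genes were called, so this agreement was largely set in advance. None was called under all of them, and 66 were called under all but numbers 1 and 2 alone. Of 2747 recomputed gene values, 2483 stayed on their side of the threshold, 258 lost and 6 gained a call, while 26 named genes lost theirs once both control ratios were covariates and 9 without restricted replicate 5. Counts of called probe sets (1426, with 678 higher and 748 lower) became 610, 207 and 403 with those covariates, 3, 0 and 3 within numbers 1 and 2, and 898, 414 and 484 within numbers 3 to 5, where fewer arrays were fitted and 1 probe set passed for the difference between lines. Array weights gave 2111 called, 1114 of them higher. The replicate block gave 2207 called, 1154 of them higher. The labels do not say what the numbers share. Same-numbered arrays correlated at 0.061, 0.287, 0.218, 0.118 and 0.387. Numbers 2, 3 and 5 correlated best with their own number, a hint from the data of shared structure, but numbers 1 and 4 did not, so the arrays were not treated as paired. Leaving out each array gave 839 to 1624 called, 344 to 818 higher and 495 to 806 lower, and 0 for the difference between lines, with the lowest count without ad libitum replicate 4. The cause of these shifts was not tested. The diet difference in the log2 array median was 0.11, 0.093 to 0.138 without single arrays and 0.00 after quantile normalization, which sets it so. That of the log2 GAPDH ratio was 0.492 to 0.942 without single arrays. Muscle signal reached 12.36 on restricted replicate 1, and dim probe sets carry less certain folds.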

Other observations

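The extracellular matrix gave calls in both directions, 5 lower and 3 higher of 39 genes, with a median of 0.08. LUM, the proteoglycan lumican, stood at 13.00, 12.49, 11.39, 11.81 and 12.18 on the restricted arrays and at 13.54, 13.55, 13.18, 13.43 and 13.14 on the ad libitum arrays, and fell by 1.20 (SE 0.222, limma adjusted p = 0.002). COL15A1, a collagen of basement membranes, fell by 0.74. CTSK, a collagen-cleaving cathepsin, stood at 13.49, 13.41, 13.57, 13.34 and 13.50 in restricted pigs, against 13.10, 12.84, 12.70, 12.71 and 12.97 in ad libitum pigs, and rose by 0.60. TIMP2, an inhibitor of matrix metalloproteinases, rose by 0.84 and THBS2, a matrix glycoprotein, by 0.72 (both named after their values were seen). The count lower was 3 without restricted replicates 3 or 5 or ad libitum replicates 3 or 5 and 8 without restricted replicate 1, and the count higher was 5 without restricted replicate 2 or ad libitum replicate 3.

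Cell cycle genes fell where they were called, 5 of 20 with a median of -0.57. TUBB, a beta tubulin, stood at 11.25, 10.37, 10.62, 10.43 and 10.78 on the restricted arrays and at 11.65, 11.75, 11.98, 12.28 and 11.97 on the ad libitum arrays, and fell by 1.24. TOP2A, the topoisomerase of dividing cells, fell by 1.71 but overlapped between the groups and lost its call without ad libitum replicate 4 (-1.57), in numbers 3 to 5 alone (-1.22) and with the control ratios as covariates (-0.99). The count was 3 without restricted replicates 2 or 3 or ad libitum replicate 2, 2 without ad libitum replicate 4, 1 with the control ratios as covariates and 1 in numbers 3 to 5 alone. DERL1, of the endoplasmic reticulum's protein disposal route, fell by 0.84 and DNAJB9, a chaperone there, by 0.69. They were the 2 calls among 28 such genes (7.1%), below the 10.8% of named genes called, and DNAJB9 lost its call with the control ratios as covariates (-0.60) and in numbers 3 to 5 alone (-0.53). Interferon-stimulated, MHC class I and clock genes (19, 10 and 7 tested) gave no call by limma, against 10.8% of named genes called. In lists this short, 0 calls is not far from that share. An unadjusted p under 0.05 was found for 1, 2 and 0 of them. Of the probe sets without a gene name, 2 fell by 2.91 each and 2 rose by 1.82 and 1.74.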
